A study of Saccharomyces cerevisiae with 9 samples.

Results

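Gene expression in the yeast Saccharomyces cerevisiae strain D12, a recombinant carrying the Mucor rouxii gene for D12-desaturase, was set against the reference strain, REF. The comparison used the 3 D12 and 3 REF arrays of a series of 9, chosen by their titles, and covered every S. cerevisiae gene read by a probe set with 1 assigned gene, 5449 genes in all. The other 3 arrays belong to D126, which co-expresses 2 genes of that fungus, for D12-desaturase and D6-desaturase. They entered the same fit, where they add to the estimate of the spread between replicates, and their levels and tests are given beside some results. All strains, REF included, were chemostat cultures limited by glucose (dilution rate 0.1 per h), harvested at a steady state that had lasted 5 residence times or longer. Total RNA was hybridised to Affymetrix arrays. The labels do not give the strain background, the promoter or vector that drives the desaturase, or whether the reference strain carries an empty vector. Nor do they say whether replicate arrays came from separate cultures, so a p-value here speaks of the spread among arrays, which may be technical.

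A D12-desaturase introduces a second double bond into oleic acid and so makes linoleic acid, a polyunsaturated fatty acid that S. cerevisiae does not make itself. The only fatty acid desaturase of yeast, Ole1, is an endoplasmic reticulum enzyme that turns saturated fatty acids into monounsaturated ones and carries its own cytochrome b5 domain. Many fungal and plant D12-desaturases take their electrons from free cytochrome b5, which is reduced by cytochrome b5 reductase. OLE1 transcription in yeast follows membrane lipid packing through the membrane-bound activators Mga2 and Spt23, and added unsaturated fatty acids are known to repress it. No probe set of the yeast array is assigned to the fungal gene, so expression of the transgene could not be checked in these values.

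No gene passed the test between D12 and REF. In these bulk samples fewer cells with a transcript and less of it per cell cannot be told apart. At an adjusted p under 0.05, limma called 0 of 5449 genes (0.00%), and the smallest adjusted p was 0.291. Without adjustment, 326 genes (5.98%) had a p under 0.05. Of these, 229 lay higher in D12 (4.20% of all genes) and 97 lower (1.78%), a split of 70.2% on the higher side. That split was 44.8% with arrays centred on their medians, 49.1% with quantile normalization and 50.2% without D12 replicate 3. The levels on the 3 arrays of one strain did not overlap those of the other for 554 genes (10.2%), 338 higher (6.20%) and 216 lower (3.96%) in D12. In the same fit limma called 1173 genes (21.5%) between D126 and REF and 1200 genes (22.0%) between D126 and D12.

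The intervals show how large a difference these arrays leave room for. The 95% interval of D12 minus REF lay inside a 1.5-fold change in either direction for 5397 genes (99.0%), and inside a 1.2-fold change for 4749 (87.2%). With intervals widened to hold for all genes at once, 3918 genes (71.9%) stayed inside 1.5-fold and 5122 (94.0%) inside 2-fold. The median absolute difference was 0.039 on the log2 scale. By size, 52 genes differed by at least 1.2-fold in their means, 4 of them by at least 1.5-fold and 0 by at least 2-fold. The 4 were FLO11 (0.97) and YDR524W-C (0.60) on the higher side and AAD3 (-0.99) and YFL068W (-0.63) on the lower side. YDR524W-C, an uncharacterised gene, read 8.63, 8.45 and 9.52 in D12, so replicate 3 was the high one, and without it the difference was 0.27.

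**Figure D1:**
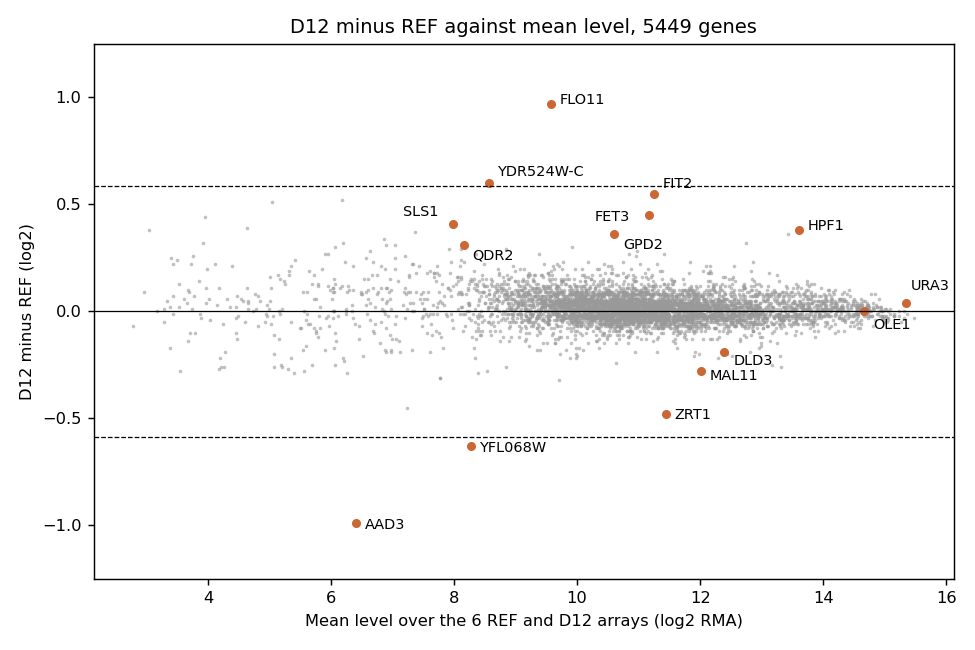
Each grey point is 1 of 5449 genes, with its mean level over the 6 REF and D12 arrays (log2 RMA) on the horizontal axis and D12 minus REF (log2) on the vertical axis; orange points are named genes and dashed lines mark a 1.5-fold change. FLO11, YDR524W-C, AAD3 and YFL068W lie beyond the lines, while OLE1 lies at 0.00 near the top of the scale.

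D12 replicate 3 stood apart from the other D12 arrays. The differences between pairs of arrays over all genes had an SD of 0.110 between D12 replicates 1 and 2, and of 0.170 and 0.160 between these and replicate 3. Pairs of REF arrays ranged from 0.08 to 0.114, and pairs of 1 REF and 1 D12 array from 0.103 to 0.176. Of the REF arrays, replicates 1, 2 and 3 were the farthest from the strain mean for 30.7%, 27.0% and 42.3% of genes. Among D12 arrays, replicate 3 was the one farthest from the strain mean for 2676 genes (49.1%). Along the leading principal component of the 6 arrays, which held 47.6% of their variance, it lay at -9.295, while the other 5 arrays lay between 0.382 and 3.693. Some values without it are given below.

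OLE1 and its regulators had nearly the same levels in both strains. OLE1 stood at 14.68, 14.66 and 14.66 on the REF arrays and at 14.68, 14.68 and 14.65 on the D12 arrays. The groups overlapped fully, and the difference was 0.00 (95% interval -0.08 to 0.08, adjusted p = 0.995), with the upper end of the interval at 1.06-fold. For MGA2 the levels were 11.13, 11.11 and 11.19 in REF and 11.08, 11.10 and 11.18 in D12, a difference of -0.02 (interval -0.11 to 0.06). SPT23 was at 11.51, 11.44 and 11.39 in REF and 11.41, 11.39 and 11.63 in D12, so its highest value was on D12 replicate 3 (difference 0.02, interval -0.12 to 0.17). UBX2, which helps release both activators from the membrane, differed by -0.04 (interval -0.15 to 0.06).

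The strains' levels of the electron donors also overlapped. CYB5, which encodes cytochrome b5, read 13.58, 13.61 and 13.65 in REF and 13.50, 13.61 and 13.54 in D12. The difference was -0.06 (interval -0.19 to 0.06, adjusted p = 0.865). The reductase genes CBR1 and MCR1 differed by 0.01 (interval -0.09 to 0.11) and by 0.02, and NCP1, the cytochrome P450 reductase gene, by -0.02 (interval -0.11 to 0.07). Among the 12 genes of desaturation and its electron donors, which include the sterol desaturases ERG3 and ERG5 and the fatty acid hydroxylase SCS7, 0 were called, all 12 intervals lay inside 1.2-fold and the median was -0.022, against 0.013 over all genes.

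Fatty acid synthesis and elongation genes differed by at most 0.09. ACC1, the cytosolic acetyl-CoA carboxylase gene, differed by -0.01, and the fatty acid synthase genes FAS1 and FAS2 by -0.01 and -0.04. ACS2, an acetyl-CoA synthetase gene, read 13.99, 13.96 and 13.94 in REF and 13.83, 13.88 and 13.91 in D12. All 3 D12 values lay below the REF values (difference -0.09, adjusted p = 0.793). Of these 13 genes 0 were called and 1 did not overlap, against 10.2% of all genes. Their median was -0.019, with all 13 intervals inside 1.2-fold. Of 8 genes of fatty acid activation and transport, 0 were called and 0 were without overlap; FAA3, an acyl-CoA synthetase gene, differed by 0.10 (interval -0.01 to 0.22).

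Mitochondrial type II fatty acid synthesis, which supplies octanoate for lipoic acid, had a median of 0.077 over 11 genes, 10 of which lay above 0, against 59.7% of all genes. That share of all genes was 47.4% with arrays centred on their medians, 48.9% with quantile normalization and 50.5% without D12 replicate 3. HFA1, its acetyl-CoA carboxylase gene, read 9.54, 9.47 and 9.48 in REF and 9.72, 9.58 and 9.71 in D12. These values did not overlap (difference 0.17, interval 0.07 to 0.27, adjusted p = 0.77). It was the only member without overlap (10.2% over all genes), and 0 members were called. Without D12 replicate 3 the median of the list was 0.032.

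In ergosterol synthesis, 23 of 25 genes lay below 0 and the median was -0.040, while 0 were called. All 25 intervals lay inside 1.2-fold. For 7 genes the D12 values were all below the REF values, among them ERG26 and ERG5, against 3.96% of all genes. ERG26, a sterol dehydrogenase gene, read 12.81, 12.78 and 12.83 in REF and 12.75, 12.67 and 12.65 in D12 (difference -0.12, interval -0.20 to -0.04, adjusted p = 0.77). ERG9, the squalene synthase gene at the branch to sterols, read 13.60, 13.59 and 13.62 in REF and 13.53, 13.51 and 13.5 in D12 (difference -0.09, adjusted p = 0.773). HMG1, which encodes the rate-limiting HMG-CoA reductase, overlapped and differed by -0.06 (interval -0.14 to 0.03). The median of the list stayed between -0.057 and -0.035 over the scaling alternatives, array weights and each array left out.

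Sterol uptake genes and their regulators differed in both directions. SUT1, a transcription factor that promotes sterol uptake, read 9.5, 9.44 and 9.58 in REF and 9.73, 9.66 and 9.75 in D12. All D12 values were above all REF values (difference 0.21, interval 0.11 to 0.30, adjusted p = 0.503). Its paralogue SUT2 differed by 0.12 (adjusted p = 0.78), and PDR11, a transporter needed for sterol uptake, by -0.13 (adjusted p = 0.783), both without overlap. Of 11 such genes 0 were called and 4 did not overlap, 2 in each direction, against 6.20% higher and 3.96% lower over all genes.

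**Figure D2:**
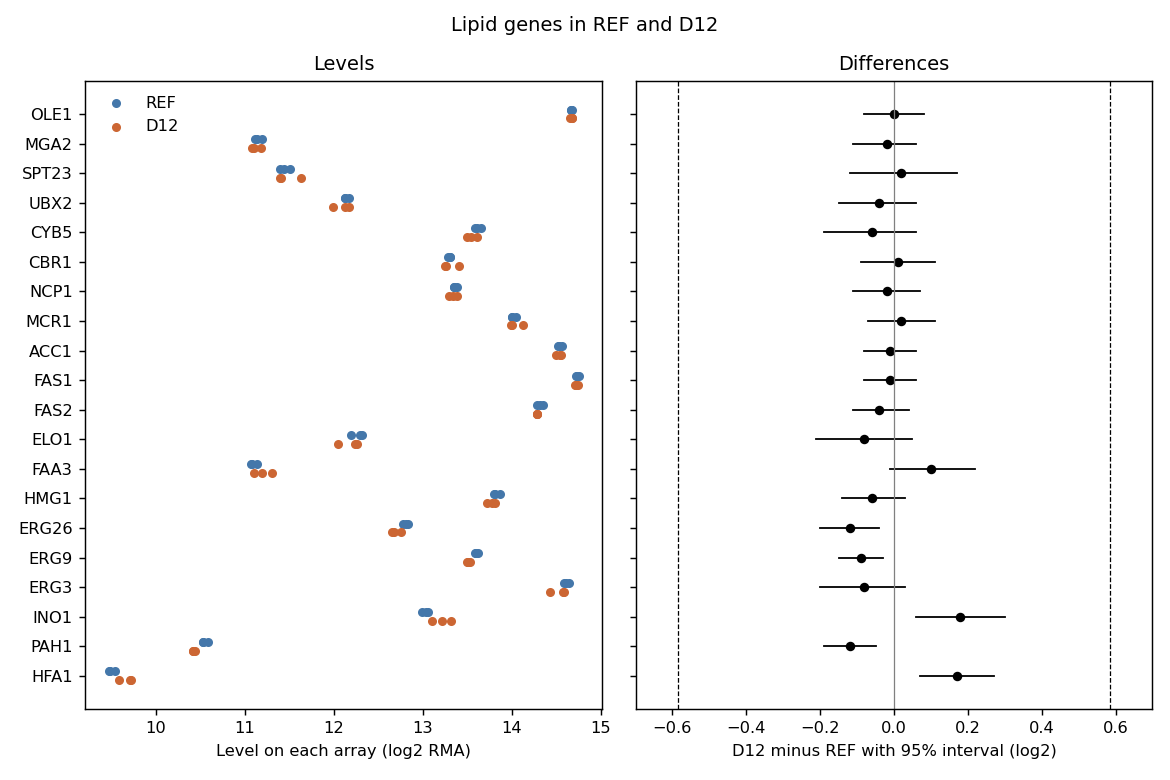
The left panel gives the level (log2 RMA) of 20 lipid genes on each of the 3 REF (blue) and 3 D12 (orange) arrays, and the right panel D12 minus REF (log2) with its 95% interval; dashed lines mark a 1.5-fold change. All 20 intervals lie inside the dashed lines, and those of ERG26, ERG9, INO1, PAH1 and HFA1 do not cross 0.

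Among 25 phospholipid genes 0 were called and 1 did not overlap, against 10.2% of all genes, with a median of -0.008. INO1, the inositol-3-phosphate synthase gene that responds to inositol and phosphatidic acid, was that gene. It read 13.03, 13.06 and 12.99 in REF and 13.10, 13.31 and 13.21 in D12 (difference 0.18, interval 0.06 to 0.30, adjusted p = 0.77). Its activator INO2 differed by -0.07 and its repressor OPI1 by -0.01. PAH1, the phosphatidate phosphatase gene of triacylglycerol synthesis, read 10.53, 10.58 and 10.53 in REF and 10.42, 10.42 and 10.44 in D12. The values did not overlap (difference -0.12, interval -0.19 to -0.05, adjusted p = 0.77).

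The 21 genes of triacylglycerol and steryl ester metabolism had a median of -0.018, with 0 called. Without overlap were 2 members, both lower, against 3.96% of all genes. Sphingolipid genes numbered 26, with 0 called, 0 without overlap (10.2% over all genes) and a median of -0.017. Peroxisomal beta-oxidation, by which yeast burns fatty acids, had 0 of 23 genes called, 1 without overlap and a median of 0.034, or 0.008 without D12 replicate 3. Its first enzyme gene, POX1, differed by 0.03, FOX2 by 0.03 and POT1 by -0.06. Genes of endoplasmic reticulum folding and the unfolded protein response, where a foreign membrane enzyme is made, had 0 of 21 called and 0 without overlap. KAR2, the main chaperone gene there, differed by -0.01 and the regulator HAC1 by -0.04. The median of that list was 0.042, 0.004 without D12 replicate 3 and -0.012 with array weights.

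QDR2 and HPF1, a membrane transporter gene and a cell wall gene, had the smallest adjusted p. QDR2, whose product is a multidrug transporter, read 7.95, 8.04 and 8.0 in REF and 8.40, 8.24 and 8.27 in D12. The D12 values were all above those of REF, a difference of 0.31 (interval 0.20 to 0.41) or 1.24-fold, with an adjusted p = 0.291. In HPF1, a cell wall mannoprotein gene, the levels were 13.51, 13.37 and 13.37 in REF and 13.82, 13.81 and 13.75 in D12, again without overlap. The difference was 0.38 (interval 0.25 to 0.51), or 1.30-fold, with an adjusted p = 0.291.

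FLO11, named after its values were seen because it had the largest difference on the higher side, encodes the flocculin needed for invasive growth and cell adhesion. It read 8.90, 8.78 and 9.59 in REF and 10.28, 9.57 and 10.32 in D12. D12 replicate 2 lay just below REF replicate 3, so the groups overlapped. The difference was 0.97 (SE 0.236, interval 0.44 to 1.5), or 1.96-fold, with an adjusted p = 0.654. Without D12 replicate 3 it was 0.84 (adjusted p = 0.769). The D126 arrays read 9.11, 9.06 and 9.18, a difference of 0.03 from REF (adjusted p = 0.946).

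Among 34 cell wall genes 0 were called and 6 did not overlap, 2 higher and 4 lower, with a median of -0.012. Over all genes the shares without overlap were 6.20% higher and 3.96% lower. WSC4, a wall stress sensor gene, read 8.62, 8.59 and 8.64 in REF and 8.78, 8.84 and 8.81 in D12 (difference 0.20, adjusted p = 0.503). SCW11, a glucanase gene of daughter cells, read 10.44 on each REF array and 10.33, 10.26 and 10.23 in D12 (difference -0.17, interval -0.24 to -0.09, adjusted p = 0.503). CHS2, the chitin synthase gene of the division septum, differed by -0.19 (adjusted p = 0.503). RTA1, a membrane protein gene of the drug efflux list, read 8.37, 8.65 and 8.60 in REF and 8.30, 8.28 and 8.18 in D12 (difference -0.29, adjusted p = 0.77). Seripauperin and anaerobic mannoprotein genes had 0 of 14 called and 0 without overlap.

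**Figure D3:**
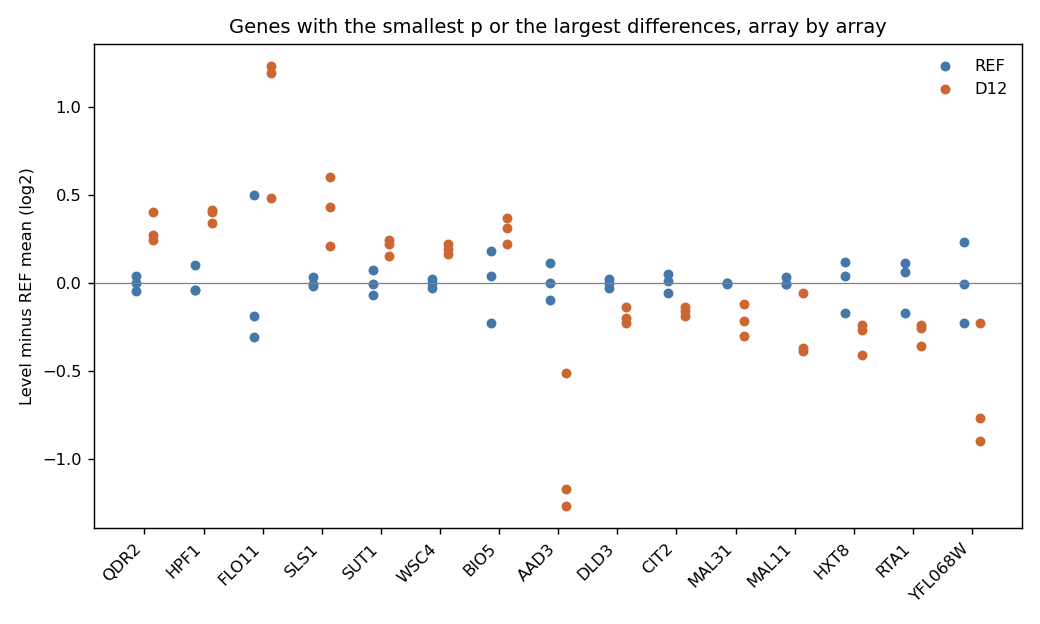
Each gene is shown as the level on the 3 REF arrays (blue) and 3 D12 arrays (orange) minus its REF mean (log2). Drawn is a selection of genes with small p or large differences, FLO11 included. YDR524W-C and SCW11, among others, are left out. The D12 points of QDR2 and HPF1 lie in a narrow band above REF, those of FLO11 spread from 9.57 to 10.32 and those of AAD3 from 5.63 to 6.39 before the REF mean is taken off.

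AAD3 belongs to the aryl-alcohol dehydrogenase family of 7 listed genes, 5 of them measured here, many of which lie near chromosome ends. It read 6.80, 7.01 and 6.90 in REF and 5.63, 5.73 and 6.39 in D12. D12 replicate 3 lay between the other D12 arrays and REF, and the groups did not overlap. The difference was -0.99 (interval -1.38 to -0.60, adjusted p = 0.503). Because D12 replicate 3 held the D12 value nearest REF, leaving it out enlarges the difference by construction. Without it the difference was -1.22 and passed limma's test (adjusted p = 0.00337). It also passed with array weights (-1.16, adjusted p = 0.00786), which gave that array a weight of 0.195, and with quantile normalization (-1.01, adjusted p = 0.0463). The probe set is of a kind that can bind similar transcripts, and the other 2 probe sets of AAD3 differed by -0.33 and -0.08. The set at -0.33 read below the background limit of 5.64 on all 6 arrays, and the set at -0.08 read 5.80 to 6.26. On the first probe set, D12 replicates 1 and 2 also lay near that limit. With the mean of the probe sets of AAD3 the difference was -0.47 (adjusted p = 0.503). In D126 the first probe set read 6.12, 5.92 and 5.83. That was -0.95 from REF (adjusted p = 0.00561 in limma), on the same REF arrays. Of the related genes, AAD6 and AAD14 each differed by -0.09 between D12 and REF without overlap, AAD4 by -0.03 and AAD10 by 0.02.

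In carbon metabolism, CIT2 and DLD3, which encode peroxisomal citrate synthase and a cytosolic lactate dehydrogenase, were among the lowest p-values. DLD3 read 12.49, 12.46 and 12.51 in REF and 12.26, 12.29 and 12.35 in D12 (difference -0.19, interval -0.27 to -0.11, adjusted p = 0.503). CIT2 read 13.08, 13.01 and 13.12 in REF and 12.91, 12.88 and 12.93 in D12 (difference -0.16, interval -0.24 to -0.08, adjusted p = 0.522). Neither overlapped. In D126 the levels were above both other strains, with means of 12.82 for DLD3 and 13.74 for CIT2. Of 17 genes of the glyoxylate cycle and gluconeogenesis 0 were called; ICL1, the isocitrate lyase gene, differed by 0.21 (adjusted p = 0.81).

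Glycolysis and fermentation had 0 of 29 genes called. HXK2, a hexokinase gene, read 13.44, 13.46 and 13.43 in REF and 13.35, 13.31 and 13.36 in D12 (difference -0.10, adjusted p = 0.77). It was 1 of 7 genes without overlap, all lower, against 3.96% of all genes, and the list's median was -0.023. GPD2, a glycerol-3-phosphate dehydrogenase gene, read 10.29, 10.16 and 10.83 in REF and 10.69, 10.87 and 10.78 in D12. REF replicate 3 reached the D12 levels, and the difference of 0.36 (interval -0.05 to 0.77) had an adjusted p = 0.832. Respiratory chain and ATP synthase genes had 0 of 38 called, and all 38 intervals lay inside 1.2-fold.

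Maltose and galactose genes had the lowest list median after the aryl-alcohol dehydrogenases, -0.067 over 14 genes, with 0 called and 5 without overlap, all lower (3.96% over all genes). MAL31, a maltose permease gene, read 11.99, 12 and 12 in REF and 11.78, 11.88 and 11.70 in D12 (difference -0.21, interval -0.31 to -0.11, adjusted p = 0.503). MAL11, another maltose permease gene, read 12.14, 12.14 and 12.18 in REF and 11.76, 12.09 and 11.78 in D12. Its D12 replicate 2 lay close to REF (difference -0.28, adjusted p = 0.77). Without that array it passed limma's test (-0.38, adjusted p = 0.0157). Removing the D12 value nearest REF enlarges the difference by construction, so that pass is no separate support for a change. GAL3, the galactose sensor gene, differed by -0.13 and GAL1, galactokinase, by -0.04. The median of the list ran from -0.142 without D12 replicate 3 to -0.010 without D12 replicate 1. HXT8, a hexose transporter gene, differed by -0.31 without overlap (adjusted p = 0.654), while the glucose transporter genes HXT7 and HXT2 differed by -0.02 and -0.05.

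Stress genes differed little. Of 34 general stress genes 0 were called and 4 did not overlap, against 10.2% of all genes, and the median was -0.012. HSP30, which encodes a stress protein of the plasma membrane, differed by -0.07. Of 32 oxidative stress genes 0 were called and 3 did not overlap, with a median of 0.005. All 3 were higher, against 6.20% of all genes higher and 10.2% without overlap in either direction. OYE2, an NADPH oxidoreductase gene, read 12.80, 12.81 and 12.77 in REF and 12.89, 12.90 and 12.89 in D12 (difference 0.10, adjusted p = 0.794). Polyunsaturated fatty acids are prone to peroxidation, and the glutathione peroxidase genes, which reduce lipid peroxides, are in this list; HYR1, the peroxidase that also senses peroxide, differed by 0.08 without overlap (interval -0.01 to 0.16, adjusted p = 0.832).

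Some iron uptake genes varied widely among arrays of the same strain. Of 21 iron and copper genes, 4 ranged over at least 1 log2 unit across the 6 arrays, and the median range was 0.36, against 0.164 over all genes. FRE1, FRE2, FRE3, FIT1 and ARN2, reductase and siderophore genes of the same list, ranged over 0.11 to 0.25. ARN2 read 4.54 to 4.76, below the background limit of 5.64, so its small range says little about its transcript. FET3, the multicopper oxidase of high-affinity uptake, read 10.39, 10.62 and 11.82 in REF and 11.83, 11.82 and 10.53 in D12. FIT2, a cell wall mannoprotein that retains siderophores, read 10.58, 10.63 and 11.68 in REF and 11.73, 11.98 and 10.84 in D12. SIT1, a siderophore transporter gene, read 9.86, 10.07 and 10.94 in REF and 10.81, 10.95 and 9.60 in D12. In each, REF replicate 3 and D12 replicates 1 and 2 were high, and REF replicates 1 and 2 and D12 replicate 3 low, a pattern that crosses the strains. FIT3, ARN1, FTR1 and ENB1 were high and low on the same arrays. The strain differences (FET3 0.45, interval -0.48 to 1.38; FIT2 0.55, interval -0.21 to 1.31) carried wide intervals. Without D12 replicate 3 they were 0.88 for FET3 and 0.89 for FIT2, and the median of the iron and copper list was 0.127 in place of 0.048. Of 21 iron and copper genes 0 were called, and 15 had an interval inside 1.5-fold.

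**Figure D4:**
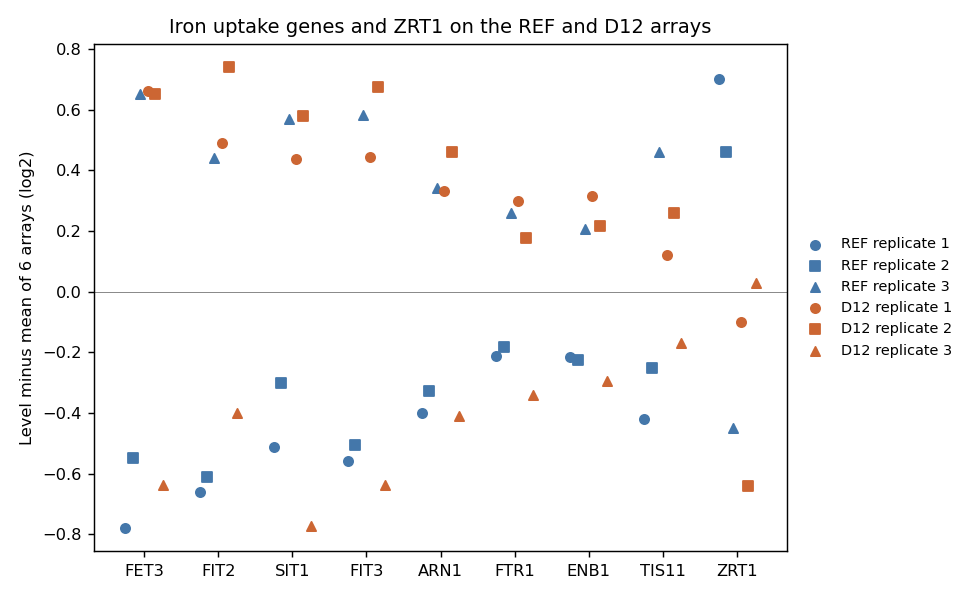
Each gene's level on the 3 REF arrays (blue) and 3 D12 arrays (orange) is given minus its mean over the 6 arrays (log2), with the marker shape giving the replicate number. The 8 iron genes are high on REF replicate 3 and D12 replicates 1 and 2, and FET3 spans 1.44 over the 6 arrays.

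The zinc transporter gene ZRT1 read 12.14, 11.90 and 10.99 in REF and 11.34, 10.80 and 11.47 in D12. Its spread within REF exceeded the difference between strain means (-0.48, interval -1.1 to 0.15, adjusted p = 0.832). ZAP1, its activator, differed by -0.11, and of 14 zinc genes 0 were called and 0 did not overlap, against 10.2% of all genes. PHO84, the phosphate transporter gene, differed by -0.26 (interval -0.67 to 0.16). Of the biotin genes picked by p or size, BIO4, dethiobiotin synthetase, read 10.19, 10.21 and 10.35 in REF and 10.50, 10.42 and 10.44 in D12 (difference 0.20, adjusted p = 0.654). BIO5, a transporter of a biotin precursor, differed by 0.30 without overlap (adjusted p = 0.77). BIO3, looked at afterwards, differed by 0.22 and BIO2, biotin synthase, by -0.06.

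Branched-chain amino acid synthesis had 0 of 13 genes called and 3 without overlap, all higher (6.20% over all genes). They were BAT1 (0.14), ILV6 (0.13) and LEU9 (0.18), with adjusted p of 0.783, 0.793 and 0.81. Cytosolic ribosomal protein genes had 0 of 42 called and 9 without overlap, all higher, against 6.20% of all genes, with RPL30 and RPL23A each at 0.06. Their median of 0.022 was 0.005 with arrays centred on their medians. Proteasome genes had 0 of 35 called and 5 without overlap, all lower, against 3.96% of all genes, with all 35 intervals inside 1.2-fold.

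SLS1, a mitochondrial inner membrane protein of mitochondrial gene expression, read 7.81, 7.76 and 7.77 in REF and 8.21, 7.99 and 8.38 in D12. The values did not overlap (difference 0.41, interval 0.19 to 0.62, adjusted p = 0.654). Its D126 mean was 8.57. SRD1, MLC2, LSM3 and YOR389W, also among the 10 smallest p on the higher side, differed by 0.18, 0.17, 0.16 and 0.22 with adjusted p between 0.503 and 0.654. Among those lower in D12, YFL064C differed by -0.31, MRX1 by -0.15 and IMD2, an IMP dehydrogenase gene on a shared probe set, by -0.32, with adjusted p between 0.611 and 0.77.

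**Figure D5:**
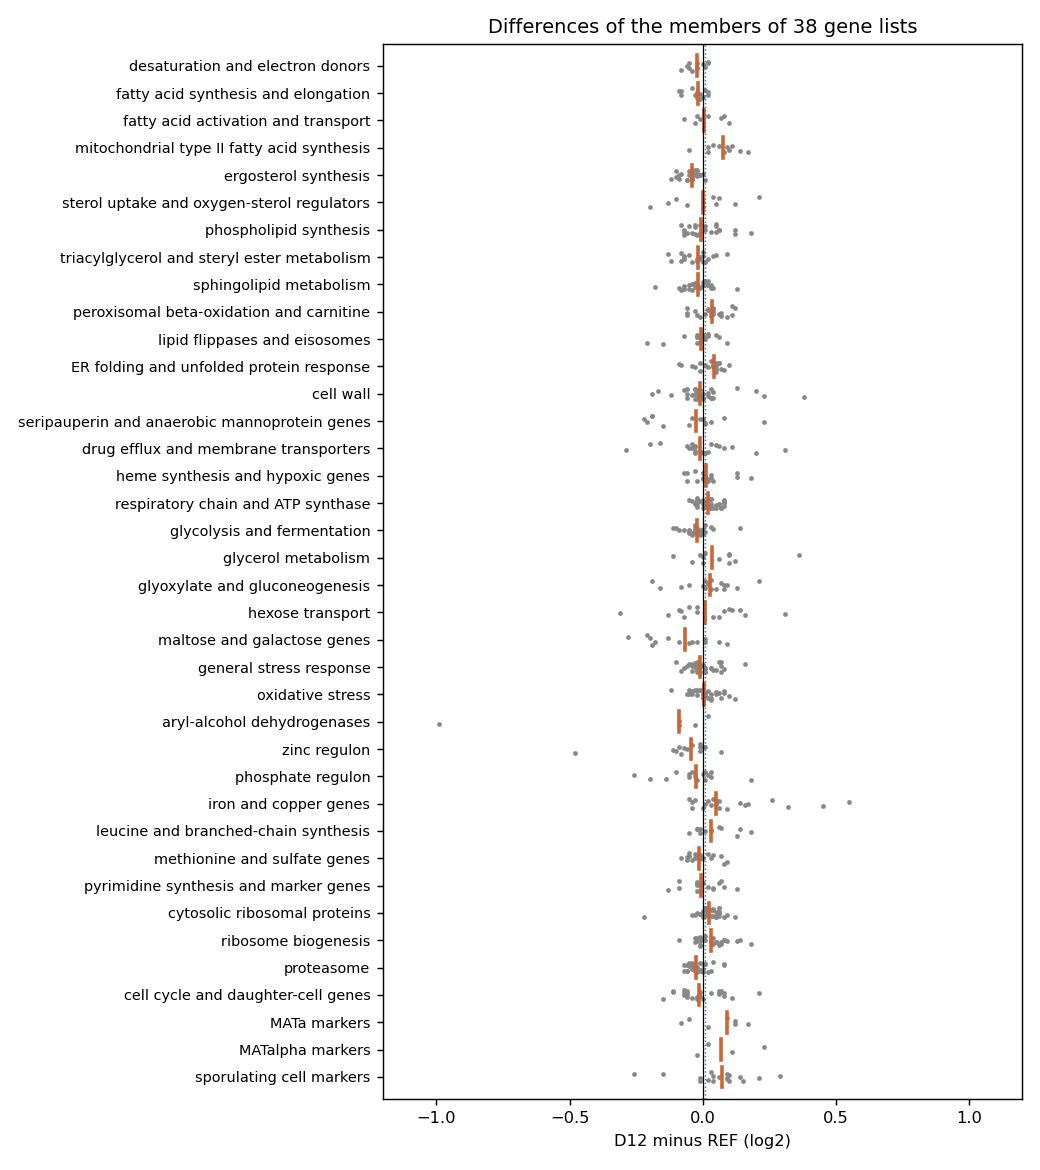
Grey points are the members of each of 38 gene lists by D12 minus REF (log2), orange bars the list medians, the solid line 0 and the dotted line the median over all genes. No list median lies farther from 0 than -0.091, that of the 5 aryl-alcohol dehydrogenase genes.

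No marker of cell identity was called. URA3, a common plasmid marker, read 15.32, 15.30 and 15.34 in REF and 15.37, 15.36 and 15.36 in D12 (difference 0.04, interval -0.02 to 0.11), with all D12 values above those of REF. These levels lie near the highest value on the arrays, 15.51, where a difference may be compressed. The D126 mean of URA3 was 14.18, which was -1.13 from REF (adjusted p = 1.29e-07 in limma). Of 7 MATa markers 0 were called, 5 lay above 0 and the median was 0.090. AGA2, an a-agglutinin subunit gene, differed by 0.12 without overlap (adjusted p = 0.773), while STE2, the alpha-factor receptor gene, was at 12.78 in REF and 12.73 in D12. Of 4 MATalpha markers 0 were called, and the alpha-factor gene MF(ALPHA)1 was at 6.11 in REF and 6.34 in D12, without overlap and close to the background limit of 5.64. The labels do not give the mating type. Of 18 sporulation markers 0 were called; their median was 0.072, and -0.010 without D12 replicate 3, where these genes had a median of 0.257 above the other D12 arrays.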

How the data were processed

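The log2 expression values of 9 arrays were used as the authors deposited them. Per the submitters' processing notes the tools were RMA and affy, with no version stated in those notes. Because RMA sets the arrays to a common scale, a change in total RNA per cell cannot be seen and changes near the top of the scale may be compressed, which was not tested. Precision is limited by the number of arrays.

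Of 10928 probe sets, 5498 carried 1 gene found in the R64 gene table. For 47 genes with several probe sets the brightest was used, which left 5449 genes. The background limit, 5.64, is the 95th percentile of the means of 1746 probe sets of genes outside that table, and 5332 genes (97.9%) lay above it. For 115 genes the probe set can bind similar transcripts. Start coordinates of the R64 gene table served only to order genes along each chromosome, and sequences were not used.

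The test was that of limma 3.58.1 (R 4.3.3): strain as the only term, all 9 arrays, empirical Bayes moderation (6 residual and 3.10 prior degrees of freedom, median SE 0.048), and Benjamini-Hochberg adjustment over 5449 genes. The procedure was tested on simulated data with independent normal noise for each gene and array. Those data hold no array that stands apart as D12 replicate 3 did, so that test does not cover this feature. Gene lists are described by counts and medians only. The 38 gene lists, the rule for named genes and the alternatives were chosen with earlier results of these data known. Named genes are the 10 smallest p in each direction, the 6 largest differences in each direction among genes above background without overlap, up to 3 members per list by p, and a fixed set around OLE1, CYB5, INO1 and URA3 and genes known from earlier results. Others are members of the described lists or are said to be chosen after their values were seen. Correlations of deviations from strain means were -0.082, -0.21 and -0.34 for same-numbered REF and D12 arrays, so replicate numbers were not taken to pair arrays. Alternatives were other array sets, a replicate block, array weights, other scalings, other probe set rules, a trended robust prior and each array left out.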

Additional observations from a re-analysis of the deposited data

How the results depend on the processing

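The count of called genes was 0 in the reported fit and in every alternative except 4, each with 1 gene. With array weights it was 1 and with quantile normalization 1 (AAD3 in both), and with single arrays left out it ran from 0 to 1 (AAD3 without D12 replicate 3, MAL11 without D12 replicate 2). In both calls with an array left out, that array held the D12 value nearest REF for the gene, so its removal enlarges the difference. Why these calls appear was otherwise not tested. The count at an unadjusted p under 0.05 (326) was 567 with array weights, 197 when all non-control probe sets were fitted together, 173 with the replicate block on the 6 arrays alone, 287 with the replicate block on all 9, and 174 (without REF replicate 2) to 553 (without D12 replicate 1) with an array left out; the cause was not tested. The replicate block called 0 genes in both forms. The count of genes with an interval inside 1.5-fold stayed between 5287 and 5405. Counts without overlap were not recomputed with a REF or D12 array left out. Differences near 0 turned sign without a call in either direction: OLE1 was -0.016 with arrays centred on medians and -0.017 with quantile normalization, CBR1 -0.007 with array weights and -0.005 with centring, ACC1 0.002 and SPT23 -0.046 with array weights, and STE3 -0.010 with quantile normalization. With each array left out in turn, AAD10 from -0.017 to 0.061, ACC1 from -0.017 to 0.010, CBR1 from -0.037 to 0.037, NCP1 from -0.042 to 0.004, OLE1 from -0.004 to 0.011, SPT23 from -0.052 to 0.067 and UBX2 from -0.081 to 0.008.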

Other observations

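The genes with the largest differences in either direction often lay near chromosome ends. Of the 52 genes that differed by at least 1.2-fold between the means of D12 and REF, 20 (38.5%) were among the 15 outermost protein-coding genes of a chromosome end in the R64 gene order, against 378 of 5446 genes (6.94%) overall. Of these 20, 11 were lower and 9 higher in D12. They include AAD3, YFL068W, MAL11, HXT8, IMD2 and ZRT1 on the lower side and HPF1, FIT2, FIT3, FRE5 and FDH1 on the higher side. FIT2, FIT3 and FRE5 are neighbours and followed the iron pattern across arrays, and HPF1 is the fifteenth gene from its end, so these are not independent of one another or of the limit. Of the 20, AAD3, HXT15, IMD2, YEL075C, YFL064C and YLL066W-B are read by probe sets that can bind similar transcripts. Among all 5449 genes, 115 have such a probe set. ZRT1 and HXT11 ranged over 1.34 and 1.01 across the 6 arrays, with overlap between the strains. Whether shared probe sets or spread among arrays account for the excess was not tested. With genes above background alone the counts were 14 of 41, against 6.46%. The limits of 15 genes and 1.2-fold were chosen after the values were seen, no test was made, and 0 of the 52 genes were called between the strains.

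HPF1 took opposite sides of REF in the desaturase strains. Its mean was 13.41 in REF, 13.79 in D12 and 12.51 in D126. The difference of D126 from REF, -0.90, passed limma's test (adjusted p = 5.81e-05), and that of D12 from REF did not. HPF1 was named with its D12 values known, so no test of D126 against D12 is given. CIT2, DLD3 and SCW11 had the reverse order, with D12 below REF and D126 above it. Their differences of D126 from REF were 0.68, 0.33 and 0.65, and those of D12 from REF -0.16, -0.19 and -0.17, none of the latter called. These genes too were named by their D12 values, which fixed the D12 side. Other genes so named lay on the same side of REF in both strains. Examples are QDR2 (0.31 in D12, 0.51 in D126) and SLS1 (0.41 in D12, 0.78 in D126). CHS2 (-0.19 in D12, 0.26 in D126) changed sides. The comparisons of D12 and of D126 with REF share the REF arrays.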
